A study of Mus musculus with 14 samples.

Results

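Bulk RNA sequencing of ascending aortic tissue was used here to compare mice given β-aminopropionitrile (BAPN) together with SB273005 with mice given PBS. BAPN blocks the lysyl oxidases, the enzymes that cross-link collagen and elastin, and it is fed to young mice to produce aneurysm and dissection of the thoracic aorta. SB273005 is a small non-peptide antagonist of the integrins αVβ3 and αVβ5, and the labels name it an inhibitor of integrin αV. The 14 libraries came from C57BL/6 mice at 6 weeks of the model and fall into 4 groups: PBS (3 libraries), BAPN (4), BAPN+Cilengitide (3) and BAPN+SB273005 (4). Cilengitide is a cyclic RGD peptide that binds the same integrins. The labels give no dose, no age and no sex, and they do not say whether each library is an animal of its own; the p-values rest on the spread among these libraries alone, and that spread may be technical. The BAPN+SB273005 group carries both agents and PBS carries neither, so in this contrast the effects of BAPN and of SB273005 cannot be told apart. The direct tests against BAPN alone are given where a gene passed them. BAPN+SB273005 libraries are called SB273005 replicates 1 to 4 below.

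The genes described are those with at least 1 FPKM (fragments per kilobase of transcript, scaled to the mapped fragments of the library) in at least 3 of the 7 libraries of these 2 groups, which left 12773 of the 32289 genes in the deposited table. Over all 14 libraries 13294 genes met the same minimum. A gene was called when its adjusted p in edgeR's quasi-likelihood test, with Benjamini-Hochberg adjustment over the 12773 genes, was under 0.05, and differences are log2 fold changes (SB273005 minus PBS) ± SE. Levels are FPKM.

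Integrins are paired α and β chains that span the cell membrane and tie the matrix outside to the actin cytoskeleton inside. Those built on αV recognise the RGD sequence of matrix proteins such as vitronectin, fibronectin and osteopontin, and some of them release active TGF-β from its latent complex. In the aortic wall, smooth muscle cells carry the contractile load between elastic lamellae that lysyl oxidase cross-links, and in aneurysm they are known to lose contractile proteins while the matrix is rebuilt and macrophages enter.

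The 7 libraries compared held 49027885 to 67041585 counts each, and the tested genes took 98.607 to 99.124% of the counts of any library in the series. The smooth muscle genes Acta2 and Myh11 were at 548 or more and 70.2 or more FPKM in every one of the 7. Several libraries stood apart. SB273005 replicate 2 had 9160 CPM (counts scaled to library size) over the contractile genes, against 26500 to 39200 in the other SB273005 libraries and 54500 to 61600 in PBS, and 175000 CPM over mitochondrially encoded genes, against 51000 to 98900 in the other 6 libraries. H2-Ea, one of the MHC class II genes, is known to be silent in C57BL/6 mice, the strain the labels give for all 14 libraries. It had 116 counts in SB273005 replicate 4, 83 to 130 in each BAPN and Cilengitide library, and 0 in PBS and in SB273005 replicates 1 to 3. A silent gene would have no counts, but these were low and the gene was under the FPKM minimum. The cardiac myosin gene Myh7 and the kidney gene Umod, whose values are given further on, split the 14 libraries in the same way, with SB273005 replicate 4 among the BAPN and Cilengitide libraries. What sets these libraries apart, strain, batch or sample identity included, was not tested. Without SB273005 replicate 4, 1939 genes were called against PBS in place of 1700. PBS replicate 1 had 2640 FPKM of the immunoglobulin gene Igkc, against 9.6 and 11.4 in the other PBS libraries, and PBS replicate 2 had 963 FPKM of the skeletal muscle actin gene Acta1, against 13.5 and 15.2. In bulk tissue, fewer cells of a type and less RNA per cell cannot be told apart.

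Of the 12773 genes, 1700 were called (13.3%), 1006 higher (7.88%) and 694 lower (5.43%) in SB273005 than in PBS. These shares are the background for the calls counted in each gene list below. Lists and members were chosen with earlier results of these data known, so setting a list beside the background is a description and not a test. Among these, 524 rose by at least 2-fold and 210 fell by at least 2-fold, and the median log2 difference was 1.03 for the genes that rose and −0.72 for those that fell. Over all genes tested the median was 0.02. In 2977 genes (23.3%) the 2 groups did not overlap in FPKM, with SB273005 above PBS in 1145 (8.96%) and below it in 1832 (14.3%). At an unadjusted p under 0.05 there were 3710 genes. In 205 genes no PBS library reached 1 FPKM, so they passed the filter through SB273005 libraries alone, and 143 of these were called higher. In 49 genes no SB273005 library reached it, and 30 of these were called lower. The direction of such calls is largely set by the filter. The split between directions moved with the scale: 59.2% of the calls were higher in the edgeR fit, 72.9% in an edgeR fit of the 7 libraries alone, 42.7% with limma on log2(FPKM + 1) and 46.5% after quantile normalisation. The counts also rested on single libraries. Without PBS replicate 2, 510 genes were called, without PBS replicate 1 or 3, 1069 or 898, and in a fit of the 7 libraries alone 528 (4.13%), of which 523 were among the 1700. Calls that stood whichever 1 of the 14 libraries was left out numbered 453, 286 higher and 167 lower. Where a gene named below is not one of these, the largest adjusted p over those omissions is given with the library left out.

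**Figure D1:**
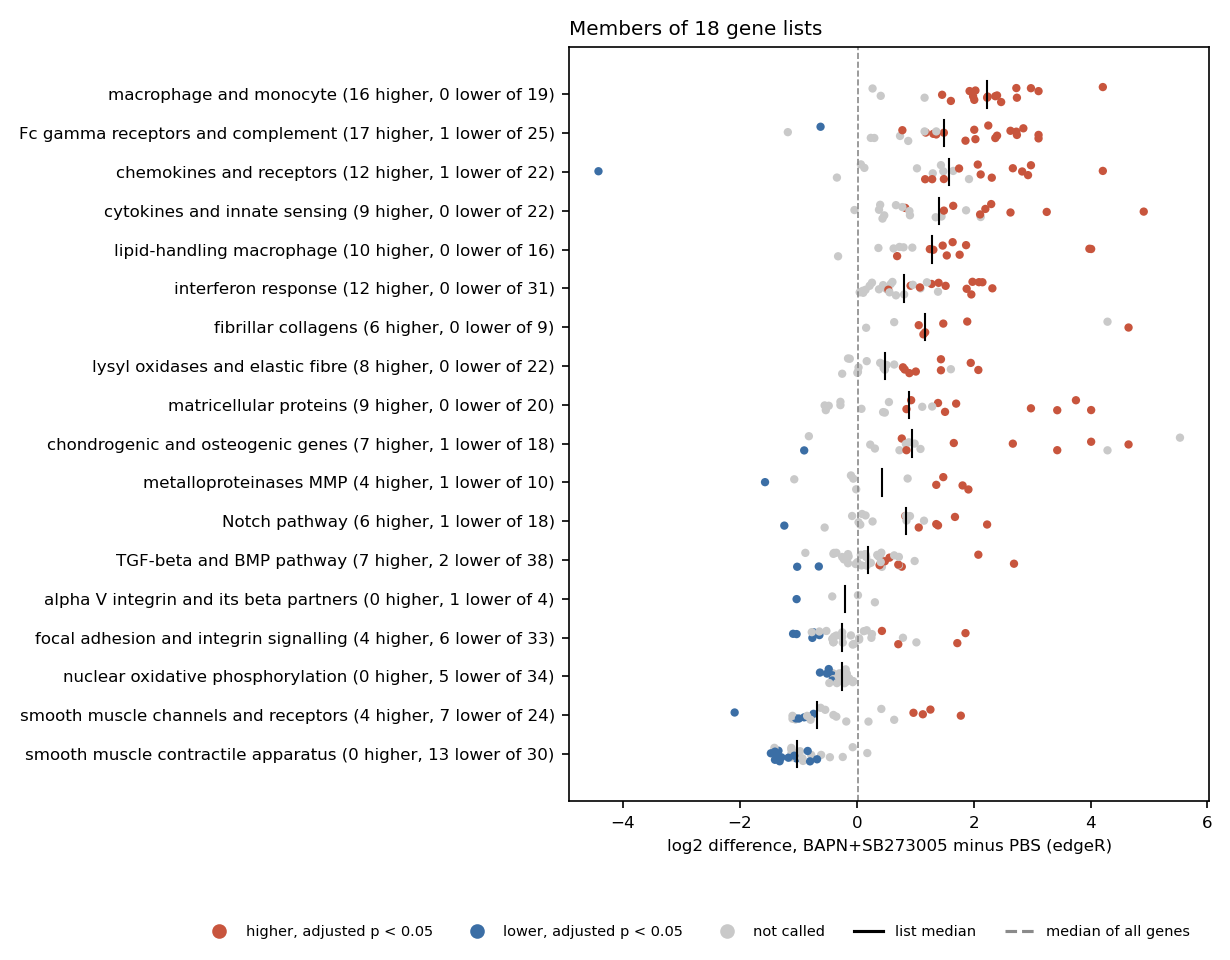
Each row is 1 of 18 gene lists, with the numbers called higher and lower and the number tested beside its name; each point is 1 gene, placed by its log2 difference (SB273005 minus PBS, edgeR). Red points were called higher, blue points lower and grey points were not called; the black bar is the list median and the dashed line the median of all genes, 0.02. Most contractile genes lie to the left of the line and most macrophage, complement and chemokine genes to its right, with exceptions such as Pln, Cd59a and Cxcl13.

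Of 30 measured genes of the smooth muscle contractile apparatus, 13 fell, 0 rose and 17 did not pass, the median log2 difference was −1.02, and in 24 of them every SB273005 library was below every PBS library (background for that direction 14.3%). The genes that fell span the contractile unit: Myh11 (smooth muscle myosin heavy chain), Myl9 (myosin regulatory light chain), Tpm2 (tropomyosin), Actg2 (an actin), Lmod1 (leiomodin, which nucleates actin filaments), Smtn (smoothelin), Synpo2, Synm, Flna (filamin A), Pdlim7 and Fbxl22, with Ppp1r12a and Ppp1r14a, which encode the targeting subunit and an inhibitor of myosin phosphatase.

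Lmod1 had 197, 190 and 177 FPKM in PBS replicates 1 to 3 and 78.8, 28.6, 85.4 and 99.2 in SB273005 replicates 1 to 4. The groups did not overlap, SB273005 replicate 2 was the lowest library, and the log2 difference was −1.32 ± 0.29 (adjusted p = 0.0133; 0.0544 without PBS replicate 2). Synpo2, which encodes an actin-bundling protein of the Z-line, had 37.4, 38.4 and 46.9 FPKM in PBS and 11.8, 4.83, 18.7 and 21.9 in SB273005, again with replicate 2 lowest (−1.47 ± 0.37, adjusted p = 0.0235; 0.0747 without PBS replicate 3). Ppp1r12a went from 56.2 ± 16.7 to 24.0 ± 8.61 FPKM (SD, n = 3 and 4; −1.17 ± 0.29, adjusted p = 0.0215; 0.0908 without PBS replicate 3), and Smtn from 275 ± 8.92 to 148 ± 51.4 (−0.84 ± 0.23, adjusted p = 0.0291; 0.0905 without PBS replicate 2).

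Acta2, the most abundant member, had 4650, 6040 and 5320 FPKM in PBS and 2720, 548, 3090 and 3990 in SB273005. All SB273005 libraries were below all PBS libraries, but replicate 2 widened the spread and the gene did not pass (−1.01 ± 0.46, adjusted p = 0.163). Myh11 had 701, 749 and 809 FPKM in PBS and 259, 70.2, 402 and 412 in SB273005 and fell by 1.36 on the log2 scale (SE 0.42, adjusted p = 0.0489; 0.127 without PBS replicate 2). Pln, which encodes the calcium pump regulator phospholamban, was the 1 member with a difference above 0, at 0.18 (adjusted p = 0.86), and Vcl, vinculin, stood at −0.07 (adjusted p = 0.93). Within the SB273005 group, replicate 2 was the lowest library for 29 of the 30 genes and replicate 4 the highest for 19.

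These contractile calls did not hold in smaller fits: 0 of the 13 stood under every omission, the count was 6, 1 and 1 without PBS replicates 1, 2 and 3, 3 without SB273005 replicate 1, 7 without Cilengitide replicate 2, 20 without SB273005 replicate 4 and 0 in a fit of the 7 libraries. Without SB273005 replicate 2, 15 were lower and the median was −0.77. DESeq2 called 20 and limma on log2(TPM + 1) called 3, and the list median stayed between −1.32 and −1.03 over these and the other scalings. SB273005 replicate 2, the lowest library for these genes, also had the highest mitochondrial share; the part of that in the result was not tested. Without any FPKM minimum 2 were called.

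Because contractile genes are classic targets of serum response factor, which binds the CArG box, the bases upstream of their starts were searched for it on both strands. RefSeq promoters of 250 bases before to 50 bases after the start were matched by symbol for 26 of the 30 genes (build GRCm38.p6), and 4 of the 26 (15.4%) held a CArG box, against 439 of 27025 promoters in all (1.62%) and 131 of 9274 promoters of tested genes (1.41%). The 4 were Myl9 and Fbxl22, which fell, and Ldb3 and Vcl, which did not pass, so of the 11 genes that fell and had a promoter, 2 held the motif in this window. The first 250 bases of 3 of these promoters are shown 5′ to 3′ on the gene's strand with the CArG box in capitals, so that the motif of 2 genes that fell can be set beside that of 1 that did not.
Myl9: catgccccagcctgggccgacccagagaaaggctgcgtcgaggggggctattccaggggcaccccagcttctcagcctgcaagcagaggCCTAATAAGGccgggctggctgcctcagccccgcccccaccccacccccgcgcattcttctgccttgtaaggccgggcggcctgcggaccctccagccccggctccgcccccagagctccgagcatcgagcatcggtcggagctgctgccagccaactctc
Fbxl22: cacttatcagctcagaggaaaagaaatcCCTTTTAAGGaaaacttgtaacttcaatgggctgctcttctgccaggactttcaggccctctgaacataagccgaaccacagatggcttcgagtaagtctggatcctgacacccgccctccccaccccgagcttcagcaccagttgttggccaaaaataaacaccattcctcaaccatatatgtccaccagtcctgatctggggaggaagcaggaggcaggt
Vcl: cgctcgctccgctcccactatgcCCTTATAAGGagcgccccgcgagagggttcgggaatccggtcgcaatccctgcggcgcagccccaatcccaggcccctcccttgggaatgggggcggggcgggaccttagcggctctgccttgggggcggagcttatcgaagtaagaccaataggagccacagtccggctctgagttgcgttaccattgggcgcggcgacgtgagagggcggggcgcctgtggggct
The Myl9 sequence lies at chr2:156775214-156775463 on the plus strand, with the first base of the motif 161 bases before the start. That of Fbxl22 lies at chr9:66514594-66514843 on the minus strand (222 bases), and that of Vcl at chr14:20929148-20929397 on the plus strand (227 bases). Myl9 had 3250, 3280 and 3400 FPKM in PBS and 1090, 353, 1560 and 1850 in SB273005 (−1.40 ± 0.39, adjusted p = 0.0336; 0.095 without PBS replicate 2). Fbxl22, which encodes an F-box protein, had 24.1, 35.0 and 36.7 in PBS and 12.9, 4.11, 14.6 and 15.6 in SB273005 (−1.40 ± 0.38, adjusted p = 0.0305; 0.102 without PBS replicate 2). A match is a description, not a site or a cause, and no match says only that these letters are not in this window.

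The transcription regulators of smooth muscle followed the contractile genes only in part. Of 25 measured, 2 rose, 3 fell and 20 did not pass, with a median of −0.05. The share that rose was near the 7.88% called higher over all genes, and 5.43% were called lower over all genes. In 9 of the 25 every SB273005 library was below every PBS library (background for that direction 14.3%). In 3 every SB273005 library was above every PBS library (background 8.96%). Prdm6, a smooth muscle transcriptional repressor, had 24.5, 22.4 and 24.2 FPKM in PBS and 10.9, 12.7, 13.3 and 12.6 in SB273005. The groups were far apart with little spread in either (−0.87 ± 0.11, adjusted p = 0.00159), and SB273005 replicate 2 did not stand out for this gene. Prdm16, which encodes a zinc finger regulator of the same family, had 9.89, 10.3 and 8.31 FPKM in PBS and 5.05, 2.19, 4.17 and 2.69 in SB273005 (−1.38 ± 0.23, adjusted p = 0.00413), and Heyl, a Notch effector, 79.2, 85.4 and 57.4 against 36.5, 21.1, 30.1 and 33.3 (−1.24 ± 0.19, adjusted p = 0.0033).

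Hes1, another Notch effector, moved the opposite way to Heyl, from 8.52, 7.01 and 7.38 FPKM in PBS to 14.8, 11.6, 12.3 and 13.4 in SB273005 (0.83 ± 0.11, adjusted p = 0.00179). Nr2f2 rose by 0.33 ± 0.09 (adjusted p = 0.0249; 0.119 without PBS replicate 2). Myocd, the co-activator of serum response factor, stood at −0.05 (adjusted p = 0.967), Srf itself at −0.52 (adjusted p = 0.0626) and Klf4, a repressor of the contractile programme, at 0.41 (adjusted p = 0.204). Prdm6, Prdm16, Heyl and Hes1 stood under every omission of 1 library, and the count for the list was 9 without SB273005 replicate 4.

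Channels, receptors and cyclic nucleotide signalling genes of smooth muscle moved both ways: of 24 measured, 4 rose and 7 fell (7.88% and 5.43% over all genes), with a median of −0.68. Adra1d, the α1D adrenergic receptor, had 51.7, 37.1 and 23.4 FPKM in PBS and 11.9, 3.3, 9.58 and 8.9 in SB273005, with no overlap (−2.09 ± 0.33, adjusted p = 0.00351). Kcna5, a voltage-gated potassium channel, went the other way, with 0.616, 0.904 and 0.797 FPKM in PBS and 2.06, 2.6, 4.25 and 1.42 in SB273005 (1.78 ± 0.35, adjusted p = 0.00803). No PBS library reached 1 FPKM for Kcna5, so the direction of that call was largely set by the filter. Genes of the nitric oxide and cGMP pathway were among those that fell: Gucy1a1, a subunit of soluble guanylate cyclase, by 0.90 ± 0.19 (adjusted p = 0.011; 0.051 without PBS replicate 3), Prkg1, the cGMP-dependent kinase, by 0.80 ± 0.23 (0.0403; 0.165 without PBS replicate 3), and the phosphodiesterases Pde5a by 0.99 ± 0.27 (0.0326; 0.106 without PBS replicate 3) and Pde3a by 0.74 ± 0.20 (0.0308; 0.113 without PBS replicate 3).

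Kcnma1, the pore of the large-conductance calcium-activated potassium channel, fell by 1.04 ± 0.30 (adjusted p = 0.0375; 0.121 without PBS replicate 3), and Atp2b4, a calcium pump of the plasma membrane, by 0.82 ± 0.26 (0.0498; 0.13 without PBS replicate 3). Npr3, the clearance receptor for natriuretic peptides, rose by 1.26 ± 0.28 (0.0138; 0.0663 without PBS replicate 2), and both endothelin receptors rose, Ednra by 0.97 ± 0.26 (0.0298; 0.0961 without PBS replicate 1) and Ednrb by 1.13 ± 0.32 (0.0347; 0.112 without PBS replicate 2). Adra1d and Kcna5 were the 2 that stood under every omission. The count for the list was 3 without any 1 of the PBS replicates, 5 without SB273005 replicate 1 and 2 in a fit of the 7 libraries.

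Itgav, the gene of the αV chain that SB273005 targets, was not called. It had 8.7, 7.67 and 9.9 FPKM in PBS and 9.82, 6.33, 7.94 and 10.1 in SB273005, so the groups overlapped throughout (0.02 ± 0.14, 95% interval −0.27 to 0.32, adjusted p = 0.934; chr2:83724397-83806916 on mm10, plus strand). Of the β chains that pair with αV, Itgb3 fell: it had 20.9, 22.6 and 17.5 FPKM in PBS and 13.1, 5.44, 9.08 and 10.9 in SB273005. All SB273005 libraries were below all PBS libraries, with replicate 2 lowest (−1.03 ± 0.20, adjusted p = 0.00844; chr11:104608000-104670476, plus strand). The call stood under every omission of 1 library but not in a fit of the 7 libraries (adjusted p = 0.0714).

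Itgb5, the other β chain in the integrins that the compound is known to block, had 235, 241 and 255 FPKM in PBS and 367, 194, 283 and 319 in SB273005 (0.31 ± 0.19, adjusted p = 0.318), and Itgb1 had 342, 368 and 401 in PBS and 323, 122, 272 and 352 in SB273005 (−0.42 ± 0.26, adjusted p = 0.316). In both, SB273005 replicate 2 was the lowest of the 7 libraries. Itgb6 and Itgb8 were under the FPKM minimum and were not tested. Against BAPN alone, Itgb3 stood at −0.62 and Itgav at −0.17 (adjusted p = 0.188 and 0.519).

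Among 12 other integrin chains of matrix receptors, 2 rose and 1 fell (7.88% and 5.43% over all genes), with a median of −0.14. Itga11, the α11 chain of a fibrillar collagen receptor, had 0.961, 1.68 and 2.01 FPKM in PBS and 20.7, 10.4, 8.67 and 10.6 in SB273005 (3.07 ± 0.61, adjusted p = 0.00851). Itga6, a laminin receptor chain, had 0.472, 0.583 and 0.798 in PBS and 4.96, 6.77, 4.02 and 1.13 in SB273005, where replicate 4 was lowest but still above PBS (2.83 ± 0.53, adjusted p = 0.00641). No PBS library reached 1 FPKM for Itga6, so it passed the filter through SB273005 libraries alone. Itga3 fell by 0.78 ± 0.23 (adjusted p = 0.0396; 0.126 without PBS replicate 2). Itga5, the fibronectin receptor chain, stood at −0.07 (adjusted p = 0.898). Of the leukocyte chains, Itgam rose by 2.73 ± 0.46 (adjusted p = 0.00437), while Itgb2 and Itgax, at 1.52 and 1.36, did not pass (adjusted p = 0.108 and 0.313); without PBS replicate 1, whose 7.04 FPKM of Itgb2 compare with 1.53 and 1.14 in the other PBS libraries, all 3 passed.

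Downstream of integrins, the focal adhesion list held 33 measured genes, of which 4 rose and 6 fell (7.88% and 5.43% over all genes), with a median of −0.25. The kinases Ptk2b (Pyk2) and Ptk2 (focal adhesion kinase) rose by 1.86 ± 0.35 (adjusted p = 0.00642) and 0.43 ± 0.13 (0.0468; 0.163 without PBS replicate 2). Tensin 3, Tns3, had 3.59, 4.42 and 4.45 FPKM in PBS and 22.9, 10.1, 9.55 and 10.5 in SB273005, with replicate 1 far above its group (1.72 ± 0.38, adjusted p = 0.0129; 0.0517 without PBS replicate 2), and talin 2, Tln2, rose by 0.71 ± 0.17 (0.0204; 0.078 without PBS replicate 3). Caveolae genes were among those that fell: Cav1 by 0.76 ± 0.20 (0.0266; 0.0919 without PBS replicate 3), Cav2 by 0.74 ± 0.17 (0.0148; 0.0672 without PBS replicate 3), Cav3 by 1.09 ± 0.30 (0.0309; 0.118 without PBS replicate 2) and Cavin1 by 0.64 ± 0.19 (0.0443; 0.143 without PBS replicate 2). Ilk, integrin-linked kinase, fell by 0.66 ± 0.19 (0.0378; 0.127 without PBS replicate 3). The count of 10 became 6, 3 and 3 without PBS replicates 1, 2 and 3, 6 without Cilengitide replicate 2, 5 without SB273005 replicate 1 and 2 in a fit of the 7 libraries.

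Of 21 RGD-bearing ligands of αV integrins, 8 rose, 3 fell and 10 did not pass, with a median of 0.42. Spp1, osteopontin, had 8.76, 6.32 and 6.34 FPKM in PBS and 183, 145, 33.0 and 74.7 in SB273005, a wide range that nowhere reached PBS (4.01 ± 0.72, adjusted p = 0.00547). Comp had 10.2, 11.1 and 11.0 in PBS and 245, 48.2, 104 and 52.1 in SB273005 (3.43 ± 0.58, adjusted p = 0.00443). Thbs1, thrombospondin 1, had 5.89, 6.93 and 10.3 in PBS and 228, 70.1, 41.2 and 60.3 in SB273005 (3.75 ± 0.80, adjusted p = 0.011; 0.0577 without PBS replicate 2). For Spp1, Comp and Thbs1 alike, SB273005 replicate 1 was the highest library.

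Fn1, fibronectin, rose from 149, 106 and 115 FPKM in PBS to 668, 188, 287 and 311 in SB273005 (1.62 ± 0.41, adjusted p = 0.023; 0.0962 without PBS replicate 2). Tnc, tenascin C, rose by 1.51 ± 0.30 (adjusted p = 0.00789), Fbn1, fibrillin 1, by 1.01 ± 0.29 (0.0375; 0.124 without PBS replicate 2) and Ccn2, a matricellular TGF-β target, by 1.39 ± 0.41 (0.0428; 0.146 without PBS replicate 2). The 3 that fell were Fga and Fgg, which encode fibrinogen chains, and Vtn, vitronectin, all typically made by the liver. Their PBS levels came from PBS replicate 1: Vtn, for example, had 14.4, 4.39 and 0.581 FPKM in PBS and 0.8, 0.566, 1.44 and 0.65 in SB273005 (−2.79 ± 0.85, adjusted p = 0.0469; 0.256 without PBS replicate 1). Postn, periostin, stood at 0.08 (adjusted p = 0.836). The count of 11 was 4 and 3 without PBS replicates 1 and 2, 5 without Cilengitide replicate 2 or SB273005 replicate 1, 7 without Cilengitide replicate 3 or SB273005 replicate 2 or 3, and 5 in a fit of the 7 libraries.

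Of 22 lysyl oxidase and elastic fibre genes, 8 rose, 0 fell and 14 did not pass, with a median of 0.49. Lox, the enzyme that BAPN inhibits, had 45.7, 42.8 and 69.3 FPKM in PBS and 268, 198, 103 and 211 in SB273005 (1.95 ± 0.39, adjusted p = 0.00819). Its paralog Loxl3 had 21.8, 21.3 and 20.5 in PBS and 46.5, 31.2, 38.7 and 35.8 in SB273005, a smaller but tighter difference (0.90 ± 0.15, adjusted p = 0.00433), and Loxl4 rose by 0.79 ± 0.21 (0.0302; 0.101 without PBS replicate 3). Ltbp2 had 33.5, 34.7 and 38.8 in PBS and 232, 111, 110 and 128 in SB273005 (2.08 ± 0.35, adjusted p = 0.00433).

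Eln, elastin, had 1150, 1130 and 1020 FPKM in PBS and 3980, 2740, 1590 and 3040 in SB273005 (1.44 ± 0.39, adjusted p = 0.0313; 0.105 without PBS replicate 3). The groups did not overlap, and SB273005 replicate 3 was nearest to PBS. The fibulins Fbln2 and Fbln5, which help assemble elastic fibres, rose by 1.44 ± 0.28 (0.00774) and 0.82 ± 0.25 (0.0443; 0.132 without PBS replicate 1). Fbln1, Efemp2 and Ltbp4 stood at 0.03, 0.02 and 0.01. The count of 8 became 4 without any 1 of the PBS replicates or SB273005 replicate 1, and in a fit of the 7 libraries.

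Of 9 fibrillar collagen genes, 6 rose and 3 did not pass, with a median of 1.17. Col1a1 had 365, 314 and 345 FPKM in PBS and 1140, 1090, 522 and 879 in SB273005 (1.48 ± 0.38, adjusted p = 0.0238; 0.0917 without PBS replicate 2), and Col3a1 had 340, 372 and 435 in PBS and 834, 1110, 451 and 876 in SB273005 (1.17 ± 0.36, adjusted p = 0.0489; 0.143 without PBS replicate 1). SB273005 replicate 3 was the lowest of its group for both. The minor chains rose too, Col5a2 by 1.14 ± 0.26 (0.0164; 0.0715 without PBS replicate 2) and Col5a3 by 1.89 ± 0.48 (0.0224; 0.0902 without PBS replicate 2). Col11a1, a cartilage collagen chain, had 0.126, 0.06 and 0.126 in PBS and 4.54, 3.47, 0.513 and 1.31 in SB273005 (4.65 ± 1.30, adjusted p = 0.0346; 0.126 without PBS replicate 2). It passed the filter through SB273005 libraries alone. Of the 6 calls 0 stood under every omission, and the count was 1, 0 and 1 without PBS replicates 1, 2 and 3, 2 without SB273005 replicate 1 and 1 in a fit of the 7 libraries. Limma on log2(TPM + 1) called 0 of the 9.

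Of 17 other collagen genes 5 rose, 1 fell (7.88% and 5.43% over all genes) and the median was 0.05, lying between −0.08 and 0.13 under other scalings. Col8a1 and Col8a2, the chains of the short-chain collagen VIII of vessel walls, rose by 3.72 ± 0.81 (adjusted p = 0.0127; 0.0624 without PBS replicate 2) and 3.74 ± 0.79 (0.0106; 0.0501 without PBS replicate 2), Col8a1 from 2.93, 3.41 and 5.36 FPKM in PBS to 93.6, 43.6, 23.5 and 36.6 in SB273005. Col16a1 rose by 1.94 ± 0.35 (0.00547). Col4a1, Col4a2, Col6a1 and Col6a3 stood between −0.04 and 0.15 and were not called, and Col4a6 fell by 0.74 ± 0.22 (0.0405; 0.118 without PBS replicate 3). The count of 6 was 3 and 1 without PBS replicates 1 and 2 and 3 without SB273005 replicate 1.

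Among 22 genes of collagen processing and folding, 6 rose and the median was 0.40. Cthrc1, a secreted protein made by injured arteries, had the largest called rise in the comparison under the naming rule: 2.32, 1.74 and 2.35 FPKM in PBS and 58.9, 126, 13.2 and 69.1 in SB273005 (5.06 ± 1.25, adjusted p = 0.0215; 0.0871 without PBS replicate 2). P4ha3, a prolyl hydroxylase subunit, had 0.15, 0.236 and 0.162 in PBS and 7.97, 4.57, 1.44 and 2.23 in SB273005 (4.51 ± 1.04, adjusted p = 0.0163; 0.062 without PBS replicate 2), while its paralogs P4ha1 and P4ha2 stood at 1.12 and 0.41 and did not pass. P4ha3 passed the filter through SB273005 libraries alone. Pcolce and Bmp1, the procollagen C-proteinase and its enhancer in reverse order, rose by 1.12 ± 0.21 (0.00719) and 0.75 ± 0.19 (0.0224; 0.0757 without PBS replicate 2). Serpinh1, the collagen chaperone, stood at 0.48 (adjusted p = 0.221). The count of 6 fell to 1, 1 and 2 without PBS replicates 1, 2 and 3, and was 3 in a fit of the 7 libraries.

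Small leucine-rich proteoglycans, which bind collagen fibrils, included 4 genes that rose of 12, with a median of 0.79. Fmod, fibromodulin, had 24.1, 33.7 and 36.4 FPKM in PBS and 279, 165, 140 and 123 in SB273005 (2.54 ± 0.39, adjusted p = 0.00305), and Podn, podocan, rose by 1.20 ± 0.22 (0.00627). Lum, lumican, rose from 67.4, 82.0 and 108 to 321, 558, 187 and 259 (2.02 ± 0.45, adjusted p = 0.0129; 0.0581 without PBS replicate 2), and Dcn, decorin, by 1.07 ± 0.32 (0.0424; 0.137 without PBS replicate 1). Ogn, Omd and Prelp stood at −0.29, 0.06 and 0.26. The count of 4 was 2 without PBS replicate 2.

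Among 19 other proteoglycan and hyaluronan genes, 5 rose, 2 fell (7.88% and 5.43% over all genes) and the median was 0.25. Sdc3, syndecan 3, had 10.8, 12.8 and 15.5 FPKM in PBS and 77.8, 48.3, 38.6 and 40.5 in SB273005 (2.03 ± 0.41, adjusted p = 0.0086), and Sdc1 rose by 1.16 ± 0.30 (0.0253; 0.0841 without PBS replicate 3), while Sdc2 and Sdc4 stood at 0.09 and 0.00. Stab1, a scavenger receptor for hyaluronan, rose by 1.58 ± 0.27 (0.00433). Both genes that fell break down hyaluronan, Cemip2 by 0.56 ± 0.11 (0.00912) and Hyal1 by 1.21 ± 0.30 (0.0206; 0.0639 without PBS replicate 2). The count of 7 was 3 without PBS replicate 2 or 3.

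Matricellular genes had 9 of 20 higher and 0 lower (median 0.89); 4 of the 9, Comp, Spp1, Tnc and Thbs1, are given above. The CCN family was divided. Ccn4 had 1.23, 1.47 and 1.91 FPKM in PBS and 21.4, 12.6, 4.76 and 7.71 in SB273005 (2.98 ± 0.67, adjusted p = 0.0139; 0.0636 without PBS replicate 2), and Ccn5, at far higher levels, rose by 0.93 ± 0.28 (0.0448; 0.128 without PBS replicate 3), while Ccn1 and Ccn3 stood at 1.12 and −0.53 (adjusted p = 0.0866 and 0.381). Thbs2 rose by 1.70 ± 0.46 (0.0307; 0.105 without PBS replicate 2) and Thbs3 stood at −0.28. The count of 9 was 5 and 3 without PBS replicates 1 and 2, 5 without SB273005 replicate 1 and 7 in a fit of the 7 libraries.

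Genes of cartilage and bone formed the chondrogenic and osteogenic list, where 7 of 18 rose and 1 fell, with a median of 0.94. Runx1 had 0.416, 0.33 and 0.324 FPKM in PBS and 4.02, 2.29, 1.34 and 1.06 in SB273005 (2.67 ± 0.45, adjusted p = 0.00433). Its PBS values were all under 1 FPKM, so the direction of its call was largely set by the filter. Bmp4 rose by 0.77 ± 0.20 (0.0275; 0.093 without PBS replicate 2) and Mgp, matrix Gla protein, an inhibitor of vascular calcification, by 0.85 ± 0.25 (0.043; 0.138 without PBS replicate 2). Sox9, Acan and Col2a1, which define chondrocytes, stood at 0.89, 1.09 and 4.29 and did not pass (adjusted p = 0.088, 0.177 and 0.0849), and Alpl, alkaline phosphatase, stood at −0.82 (0.256). The gene that fell was Cilp2 (−0.90 ± 0.25, adjusted p = 0.0307; 0.0868 without PBS replicate 3). The count of 8 was 3, 3 and 4 without PBS replicates 1, 2 and 3, 3 without SB273005 replicate 1, 5 without SB273005 replicate 4 and 4 in a fit of the 7 libraries.

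The matrix metalloproteinases moved in both directions: 4 of 10 rose and 1 fell, with a median of 0.43. Mmp2, gelatinase A, had 57.8, 70.1 and 85.5 FPKM in PBS and 277, 380, 148 and 216 in SB273005 (1.91 ± 0.39, adjusted p = 0.00915). Mmp9, gelatinase B, was the member that fell, from 1.71, 1.38 and 1.34 to 0.328, 0.403, 0.455 and 0.687 (−1.57 ± 0.34, adjusted p = 0.0127). The 2 gelatinase genes thus moved in opposite directions with no overlap between groups in either, and both calls stood under every omission and in a fit of the 7 libraries (adjusted p = 0.0324 and 0.0271). Mmp19 rose by 1.48 ± 0.28 (0.00642), Mmp3, stromelysin 1, by 1.81 ± 0.44 (0.0201; 0.0667 without PBS replicate 1) and Mmp14, which activates pro-MMP2, by 1.36 ± 0.42 (0.0499; 0.158 without PBS replicate 2). The count of 5 was 3 without any 1 of the PBS replicates.

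Of the inhibitors, Timp1 rose from 20.1, 20.6 and 20.8 FPKM in PBS to 129, 60.8, 49.6 and 81.4 in SB273005 (2.03 ± 0.40, adjusted p = 0.00819), while Timp2, Timp3 and Timp4 stood at 0.53, 0.11 and 0.74 and did not pass. In the list of TIMPs with ADAM and ADAMTS proteases 6 of 27 rose and 0 fell (7.88% and 5.43% over all genes), with a median of 0.26. Adam12 and Adamts7 rose by 2.45 ± 0.49 (0.00865) and 1.91 ± 0.36 (0.00654). Both were under 1 FPKM in every PBS library and passed the filter through SB273005 libraries alone. Adamts1 and Adamts5, aggrecanases of the vessel wall, stood at 0.51 and 0.21 and did not pass.

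Cathepsins and serine proteases had 8 of 25 genes higher and 0 lower, with a median of 0.45. Ctsk, cathepsin K, a collagenase and elastase, had 20, 19.2 and 22.9 FPKM in PBS and 83.4, 111, 40.1 and 64.6 in SB273005 (1.93 ± 0.38, adjusted p = 0.0078). Ctsl rose by 0.60 ± 0.13 (0.0109) and Ctss, of macrophages, by 2.11 ± 0.65 (0.0479; 0.173 without PBS replicate 2). Their inhibitor Cst3, cystatin C, rose as well, from 553, 612 and 594 to 1130, 815, 1140 and 1130 (0.90 ± 0.16, adjusted p = 0.00547). The count of 8 was 5, 4 and 4 without PBS replicates 1, 2 and 3, 4 without SB273005 replicate 1 and 4 in a fit of the 7 libraries.

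The TGF-β and BMP pathway, which αV integrins feed, had 7 of 38 genes higher and 2 lower (7.88% and 5.43% over all genes) and a median of 0.19. Of the ligands, Tgfb3 rose from 43.8, 54.7 and 65.1 FPKM in PBS to 92.0, 92.3, 70.8 and 88.5 in SB273005 (0.71 ± 0.20, adjusted p = 0.0378; 0.127 without PBS replicate 1), and Tgfb1 (15.8, 10.7 and 9.94 against 20.9, 14.5, 13.5 and 12.9) did not pass (0.42 ± 0.20, adjusted p = 0.193). Of the receptors, Acvrl1 (ALK1) and its co-receptor Eng rose by 0.56 ± 0.10 (0.00447) and 0.39 ± 0.12 (0.0444; 0.152 without PBS replicate 1), Bmpr1a fell by 0.65 ± 0.19 (0.0427; 0.181 without PBS replicate 3), and Tgfbr1 and Tgfbr2 stood at −0.02 and 0.35. Smad2 rose by 0.48 ± 0.11 (0.0133; 0.0794 without PBS replicate 2).

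Fst, follistatin, which binds and blocks activins, gave the smallest p of the TGF-β list, with 2.03, 1.93 and 2.81 FPKM in PBS and 19.5, 10.8, 13.4 and 12.5 in SB273005 (2.69 ± 0.36, adjusted p = 0.00179). The target genes were mixed: Id2 fell by 1.02 ± 0.25 (0.0224; 0.074 without PBS replicate 2), and Id1, Id3 and Smad7 stood at 0.21, 0.15 and 0.64 and did not pass. The count of 9 for the list was 5 and 3 without PBS replicates 1 and 2, 5 without SB273005 replicate 1 and 3 in a fit of the 7 libraries.

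Macrophage genes gave the highest share of calls among the lists with more than 10 genes tested: 16 of 19 macrophage and monocyte genes rose, 0 fell and the median was 2.23. The lists were chosen with earlier results of these data known, so this ranking may follow in part from that choice. C1qb, a chain of complement C1q, had 36.0, 24.0 and 25.0 FPKM in PBS and 192, 154, 103 and 105 in SB273005 (2.37 ± 0.34, adjusted p = 0.00239). Cd14, the lipopolysaccharide co-receptor, had 3.29, 3.38 and 3.15 in PBS and 24.3, 18.4, 12.3 and 14.5 in SB273005 (2.47 ± 0.31, adjusted p = 0.00159). Csf1r, the receptor that macrophages depend on, had 7.67, 6.43 and 6.39 in PBS and 35.2, 28.9, 19.1 and 19.9 in SB273005 (1.99 ± 0.32, adjusted p = 0.00371). In all 3 the groups were apart, with SB273005 replicates 1 and 2 above replicates 3 and 4.

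Adgre1 (F4/80) rose by 2.74 ± 0.52 (adjusted p = 0.00672), Mrc1 (the mannose receptor) by 1.61 ± 0.26 (0.00371) and Cx3cr1, the fractalkine receptor, by 4.21 ± 0.87 (0.00997; 0.0569 without PBS replicate 2). The resident macrophage genes Folr2 and Cd163 stood at 0.41 and 0.27 and did not pass (adjusted p = 0.579 and 0.719). Timd4, Vsig4, Marco and Ly6c2 were under the FPKM minimum and were not tested. Timd4 went the other way, with 1.8, 0.933 and 0.954 FPKM in PBS and 0.254, 0.0516, 0.425 and 0.894 in SB273005. Vsig4, Marco and Ly6c2 overlapped between the groups, with PBS replicate 1 highest. Summed over the list, PBS libraries held 332 to 588 CPM and SB273005 libraries 1040 to 2090. Calls stood for 11 of the 16 under every omission, for 14 in a fit of the 7 libraries and for 14 between PBS and SB273005 replicates 1 to 3 alone.

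**Figure D2:**
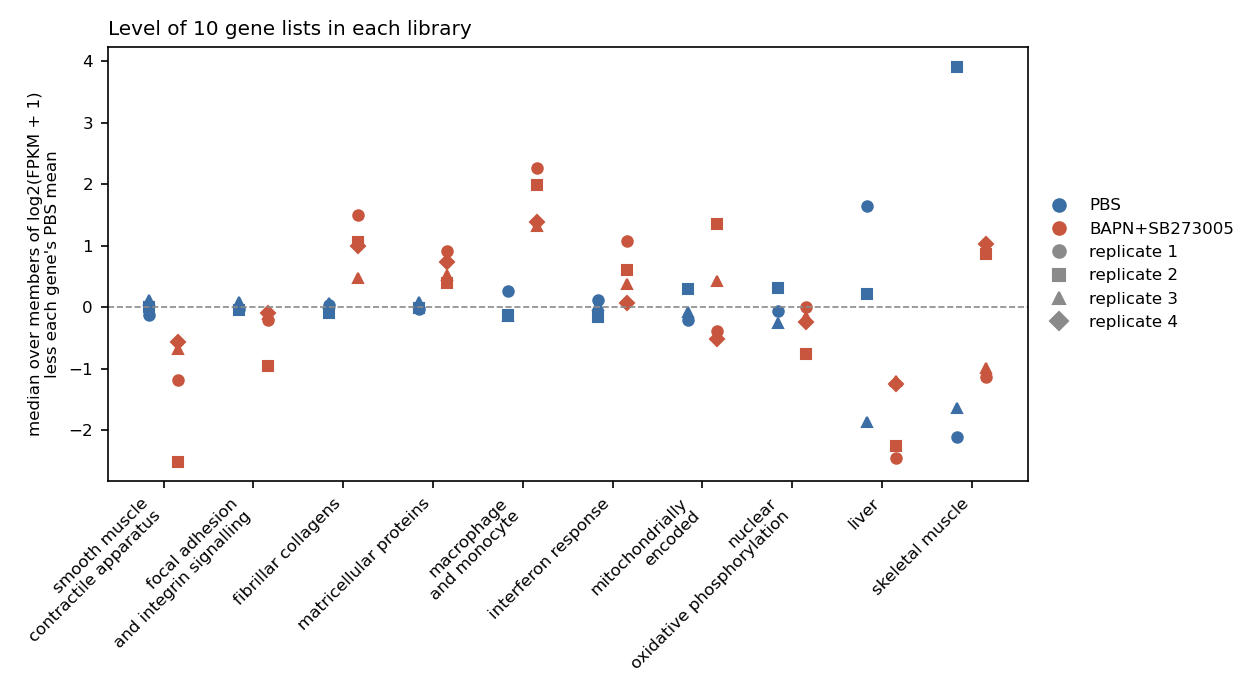
Level of 10 gene lists in each of the 7 libraries, as the median over a list's genes of log2(FPKM + 1) less each gene's PBS mean; blue symbols are PBS, red symbols SB273005, and the shape gives the replicate. Contractile genes reach −2.51 in SB273005 replicate 2 against −1.18 to −0.56 in replicates 1, 3 and 4, and macrophage genes lie at 1.32 to 2.27 in all 4.

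Genes of lipid-handling macrophages rose as well, 10 of 16, with a median of 1.28. Trem2, a lipid-sensing receptor, had 0.365, 0.349 and 0.315 FPKM in PBS and 4.61, 11.3, 2.6 and 2.09 in SB273005 (3.98 ± 0.80, adjusted p = 0.00861), and Gpnmb and Lgals3 (galectin 3) rose by 1.87 ± 0.38 (0.00912) and 1.64 ± 0.28 (0.00479). SB273005 replicate 2 was the highest library for these 3 genes. Trem2 was under 1 FPKM in every PBS library, so the direction of its call was largely set by the filter. The lipid transporters Abca1 and Abcg1 rose by 1.47 ± 0.42 (0.0378; 0.13 without PBS replicate 2) and 1.76 ± 0.53 (0.0449; 0.148 without PBS replicate 2). Of the 10 calls, Cd36 and Fabp4 are also expressed by fat cells, whose markers are given below. The count was 4 without any 1 of the PBS replicates, 6 without SB273005 replicate 1 or 2, and 4 in a fit of the 7 libraries.

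Of 25 Fcγ receptor and complement genes 17 rose, 1 fell and the median was 1.49. Fcgr3 had 5.43, 3.92 and 4.96 FPKM in PBS and 40.0, 33.7, 18.7 and 20.1 in SB273005 (2.63 ± 0.37, adjusted p = 0.00218), and Fcgr1 and Fcgr4 rose by 3.11 ± 0.49 (0.00371) and 3.11 ± 0.60 (0.00737). Fcgr1 and Fcgr4 were under 1 FPKM in every PBS library, so the direction of these calls was largely set by the filter. C5ar1, the receptor of C5a, had 0.676, 0.939 and 1.01 in PBS and 9.55, 6.09, 3.8 and 4.9 in SB273005 (2.85 ± 0.38, adjusted p = 0.00179). The proteases of the classical pathway rose by less but with little spread: C1s1 by 1.49 ± 0.20 (0.00179) and C1ra by 1.18 ± 0.18 (0.00353). C4b rose by 2.25 ± 0.36 (0.00371), C3 stood at 0.88 (0.177), and Cd59a, which protects cells from the terminal complex, was the gene that fell (−0.62, adjusted p = 0.0396; 0.161 without PBS replicate 2). Calls stood for 12 of the 18 under every omission and for 15 in a fit of the 7 libraries. Reads shared among close paralogs make the counts of C4b and the Fcγ receptors uncertain.

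Chemokines and their receptors had 12 of 22 genes higher and 1 lower, with a median of 1.57. Cx3cl1, the ligand of CX3CR1, had 5.32, 4.69 and 4.98 FPKM in PBS and 34.3, 19, 16.8 and 13.5 in SB273005 (2.12 ± 0.35, adjusted p = 0.00402), so ligand and receptor rose together. Pf4 and Cxcl16 rose by 1.29 ± 0.21 (0.00371) and 2.07 ± 0.41 (0.00789), and the monocyte attractants Ccl12 and Ccl7 by 2.83 ± 0.57 (0.00908) and 2.67 ± 0.72 (0.0302; 0.117 without PBS replicate 2). Ccl2 stood at 1.92 and did not pass (adjusted p = 0.0586). Cxcl13, a B cell attractant, was the gene that fell (−4.42, adjusted p = 0.0467; 0.376 without PBS replicate 1). Ccl family members are close paralogs and their counts are uncertain. The count of 13 was 6 and 7 without PBS replicates 2 and 3, 8 without SB273005 replicate 1 and 7 in a fit of the 7 libraries.

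Of 22 cytokine and innate sensing genes 9 rose, 0 fell and the median was 1.40. Osmr, the oncostatin M receptor, had 2.36, 2.22 and 3.09 FPKM in PBS and 9.39, 8.27, 6.89 and 6.15 in SB273005 (1.65 ± 0.21, adjusted p = 0.00162), and Tnfrsf1b, TNF receptor 2, rose from 3.83, 2.84 and 2.24 to 18.3, 15.9, 11.5 and 9.77 (2.30 ± 0.34, adjusted p = 0.00282). Il6ra rose by 1.49 ± 0.23 (0.00354) and the endosomal sensor Tlr13 by 2.63 ± 0.48 (0.00547). Tlr4, the lipopolysaccharide sensor, stood at −0.04 (adjusted p = 0.943) while its co-receptor Cd14 rose. Clec4d, a C-type lectin of myeloid cells, had 0.0737, 0.0506 and 0.0562 in PBS and 1.57, 3.91, 0.61 and 1.98 in SB273005 (4.91 ± 0.90, adjusted p = 0.00584). It passed the filter through SB273005 libraries alone.

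Of 4 neutrophil markers tested, 3 rose. These 3 were under 1 FPKM in every PBS library, so they passed the filter through SB273005 libraries alone and could hardly have been called lower. S100a8 and S100a9, the calprotectin subunits, had 6 and 17 counts over the 3 PBS libraries and 182 and 336 over the 4 SB273005 libraries (4.65 ± 0.78 and 4.10 ± 0.68, adjusted p = 0.00402 for both), and Csf3r rose by 3.25 ± 0.57 (0.00505). Lcn2, lipocalin 2, had 6.68, 0.798 and 0.571 FPKM in PBS and did not pass (−0.38 ± 0.68, adjusted p = 0.759). The granule genes Mpo, Elane, Ltf, Camp and Ngp and the surface marker Ly6g were at 0 to 1.19 FPKM in every library and were not tested. Between PBS and SB273005 replicates 1 to 3 alone, 1 of the 3 calls was made. Lymphocyte markers were high in PBS replicate 1. The 4 B and plasma cell genes tested had a median of −3.60 and 0 calls (1.62 and 0 calls without PBS replicate 1, and 1 call without PBS replicate 3), with 4730 CPM in PBS replicate 1 and 24.3 to 199 in the other 6 libraries, and the 5 T and NK cell genes had a median of −1.42 and 0 calls.

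Of 31 interferon-response genes measured, 12 rose, 0 fell, and all 31 had a difference above 0, with a median of 0.81. Ifi207 had 0.67, 0.643 and 0.681 FPKM in PBS and 4.09, 3.37, 2.96 and 2.33 in SB273005 (2.32 ± 0.29, adjusted p = 0.00162), and Oas2 rose by 1.52 ± 0.28 (0.00584). Every PBS library was under 1 FPKM for Ifi207, so that gene passed the filter through SB273005 libraries alone. Irf7, the factor that amplifies the response, had 2.31, 1.38 and 2.0 in PBS and 12.8, 4.91, 5.79 and 3.24 in SB273005, where replicate 1 was highest (1.88 ± 0.42, adjusted p = 0.0136; 0.071 without PBS replicate 2). Stat2, Irf1 and Isg15 stood at 0.61, 0.15 and 1.39 and did not pass. The promoters of these genes were searched on both strands for a pair of GAAA runs with any 2 bases between them, the core of the interferon-stimulated response element. It was in 13 of the 24 with a RefSeq promoter (54.2%), against 936 of 27025 promoters in all (3.46%) and 286 of 9274 of tested genes (3.08%), and 6 of the 10 that rose and had a promoter held it. Members that were not called held it as well: Ifit3, Ifit3b, Isg15, Stat2, Gbp2, Gbp3 and Gbp7. The upstream 250 bases of 2 of the 6 that rose are shown 5′ to 3′ on the gene's strand, with the matches in capitals, because each holds the motif more than once.
Ifit1: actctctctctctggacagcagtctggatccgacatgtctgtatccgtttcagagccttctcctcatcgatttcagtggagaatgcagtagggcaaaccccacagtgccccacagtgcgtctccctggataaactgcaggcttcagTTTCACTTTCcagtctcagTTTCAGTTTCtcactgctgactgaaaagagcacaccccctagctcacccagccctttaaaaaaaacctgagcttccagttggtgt
Oas1a: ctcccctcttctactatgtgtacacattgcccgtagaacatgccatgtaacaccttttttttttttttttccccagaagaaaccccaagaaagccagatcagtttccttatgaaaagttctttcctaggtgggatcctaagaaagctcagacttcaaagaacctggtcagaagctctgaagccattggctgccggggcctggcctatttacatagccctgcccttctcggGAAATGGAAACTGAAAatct
The Ifit1 sequence lies at chr19:34640639-34640888 on the plus strand (GRCm38.p6), with matches on the opposite strand whose first bases are 104 and 85 bases before the start. That of Oas1a lies at chr5:120907526-120907775 on the minus strand, with 2 overlapping matches 20 and 14 bases before the start. Ifit1 had 0.8, 0.783 and 1.05 FPKM in PBS and 8.34, 2.76, 1.87 and 1.47 in SB273005 (2.09 ± 0.55, adjusted p = 0.0281; 0.102 without PBS replicate 2), and Oas1a had 1.33, 0.568 and 0.81 in PBS and 8.22, 2.6, 2.79 and 1.63 in SB273005 (2.15 ± 0.58, adjusted p = 0.0298; 0.122 without PBS replicate 2). For both, SB273005 replicate 1 was far above replicates 2 to 4. The count of 12 was 2 and 4 without PBS replicates 2 and 3, 6 without SB273005 replicate 1, 2 in a fit of the 7 libraries, and 5 with limma on log2(FPKM + 1). Ifi and Oas genes sit in families of close paralogs. The promoter matches are a description and not evidence of binding.

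Antigen presentation genes gave few calls: 1 of 15 rose, the co-stimulator Cd86 (1.62 ± 0.42, adjusted p = 0.025; 0.106 without PBS replicate 2), with a median of 0.54. That share is under the 13.3% called over all genes, but all 15 had a difference above 0. PBS replicate 1 held 3290 CPM over the list, against 1270 and 1320 in the other PBS libraries and 2090 to 3730 in SB273005, and 8 genes were called without it.

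Of 18 Notch pathway genes, 6 were higher and 1 lower, with a median of 0.84. The ligand Dll4 had 0.945, 1.11 and 0.582 FPKM in PBS and 3.16, 5.7, 5.52 and 1.46 in SB273005 (2.23 ± 0.57, adjusted p = 0.0236; 0.0871 without PBS replicate 3). Its receptors Notch4 and Notch1 rose by 1.68 ± 0.41 (0.0204; 0.0744 without PBS replicate 3) and 1.06 ± 0.29 (0.031; 0.0896 without PBS replicate 1), and the glycosyltransferase Lfng by 1.36 ± 0.30 (0.0137; 0.067 without PBS replicate 2). Dll4 and Notch4 are known for their expression in arterial endothelium. Notch3, the receptor of smooth muscle, stood at 1.15 and did not pass (adjusted p = 0.134), and Heyl fell as given above. SB273005 replicate 4 was the lowest of its group for Dll4, Notch4 and Notch1. The count of 7 was 3, 2 and 2 without PBS replicates 1, 2 and 3, and 4 in a fit of the 7 libraries.

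Endothelial markers moved alongside: 5 of 17 rose and 0 fell, with a median of 0.75. Cdh5, VE-cadherin, had 6.54, 9.96 and 6.81 FPKM in PBS and 23.4, 31.2, 21.6 and 9.94 in SB273005, where replicate 4 lay within the PBS range (1.53 ± 0.46, adjusted p = 0.0435; 0.128 without PBS replicate 3). Robo4 and Sox17 rose by 2.09 ± 0.56 (0.0292; 0.102 without PBS replicate 3) and 1.49 ± 0.44 (0.043; 0.139 without PBS replicate 2), and Flt1 by 0.92 ± 0.20 (0.0134). Pecam1, Vwf, Nos3 and Tek, which also mark the endothelium, stood between −0.35 and 0.04 and did not pass. The count was 1 without any 1 of the PBS replicates, 2 or 3 without BAPN replicates 1 to 3, Cilengitide replicate 2 or SB273005 replicates 1 to 3, 8 without SB273005 replicate 4, and 1 in a fit of the 7 libraries.

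Among 25 Wnt pathway genes 6 rose, 3 fell (7.88% and 5.43% over all genes) and the median was 0.20, and the secreted antagonists did not move as one. Sfrp2 had 207, 159 and 139 FPKM in PBS and 444, 543, 430 and 380 in SB273005 (1.49 ± 0.29, adjusted p = 0.00814), and Frzb, Sfrp1 and Sfrp4 rose by 1.57 ± 0.38 (0.0204; 0.0678 without PBS replicate 2), 1.52 ± 0.44 (0.0395; 0.121 without PBS replicate 1) and 1.01 ± 0.26 (0.0239; 0.0871 without PBS replicate 2). Wif1 fell from 36.6, 40.2 and 40.6 to 7.72, 3.71, 8.92 and 21.1 (−1.87 ± 0.48, adjusted p = 0.0237; 0.0729 without PBS replicate 2). Of the receptors, Fzd2 fell from 45, 44.3 and 36.7 to 20.1, 22.6, 22.9 and 25.7 (−0.82 ± 0.12, adjusted p = 0.00218) and Fzd7 by 0.59 ± 0.18 (0.0453; 0.13 without PBS replicate 2), while Fzd8 rose by 0.97 ± 0.25 (0.0257; 0.112 without PBS replicate 2). The count of 9 was 3, 2 and 3 without PBS replicates 1, 2 and 3, and 5 in a fit of the 7 libraries.

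PDGF, IGF and FGF genes had 6 of 23 higher and 0 lower, with a median of 0.44. Igfbp3 had 3.35, 5.55 and 4.23 FPKM in PBS and 34.9, 37.4, 29.5 and 13.1 in SB273005 (2.77 ± 0.48, adjusted p = 0.0048), and Pdgfb, a mitogen for mural cells, rose from 4.22, 4.81 and 3.31 to 11.4, 13.4, 9.92 and 6.71 (1.40 ± 0.26, adjusted p = 0.00665). For both, SB273005 replicate 4 was nearest to PBS. Igf2r rose by 0.97 ± 0.18 (0.00564). The receptors Pdgfra and Pdgfrb stood at 0.44 each and did not pass. In the axon guidance list, 6 of 19 rose and 1 fell, led by Plxna2 (1.02 ± 0.18, adjusted p = 0.00459) and Nrp1, a co-receptor of VEGF and semaphorins (1.10 ± 0.23, 0.0106; 0.0533 without PBS replicate 2). The growth factor count was 3 without PBS replicate 1 or 3; the axon guidance count of 7 was 3, 1 and 2 without PBS replicates 1, 2 and 3, 4 without Cilengitide replicate 2 and 3 without SB273005 replicate 1.

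Of 29 cell cycle genes 6 rose, 0 fell (7.88% and 5.43% over all genes) and the median was 1.09. The cell cycle inhibitor Cdkn1a (p21) had 10.9, 10.5 and 10.5 FPKM in PBS and 24.3, 18.4, 32.4 and 30.2 in SB273005 (1.36 ± 0.22, adjusted p = 0.00371), and the inhibitor Cdkn2b (p15) rose by 1.43 ± 0.37 (0.0253; 0.112 without PBS replicate 2). Of the genes that drive the cycle, E2f1 rose by 1.23 ± 0.21 (0.00486), Ccnd1, cyclin D1, by 1.67 ± 0.38 (0.0162; 0.0609 without PBS replicate 3), Cdk1 by 2.31 ± 0.66 (0.0383; 0.141 without PBS replicate 2) and Ccna2 by 1.72 ± 0.51 (0.0409; 0.159 without PBS replicate 2). Mki67, Top2a and Birc5 stood at 1.15, 1.58 and 1.64 and did not pass, and the replication licensing genes Mcm2 to Mcm7 stood between −0.38 and 0.37. For Cdk1, PBS replicate 1 had 0.712 FPKM, against 0.102 and 0.0646 in PBS replicates 2 and 3. All were under 1 FPKM, so Cdk1 passed the filter through SB273005 libraries alone. The count was 14 without PBS replicate 1, 2 without PBS replicate 2 or 3, and 3 without SB273005 replicate 1.

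Of 29 genes of the unfolded protein and ATF4 responses, 4 rose and 0 fell (median 0.43), among them Trib3 (1.29 ± 0.23, adjusted p = 0.00547) and Sesn2 (1.00 ± 0.21, 0.0102; 0.0524 without PBS replicate 2). Over all genes 7.88% were called higher and 13.3% in either direction. The count was 12 without SB273005 replicate 2, 2 without PBS replicate 1 or 3 or SB273005 replicate 1, and 1 without PBS replicate 2. Hspa1b, a heat shock gene, had 165 and 613 FPKM in SB273005 replicates 3 and 4, against 19.2 to 43.8 in the other 5 libraries, and did not pass (2.75 ± 1.00, adjusted p = 0.0859). In the hypoxia and glycolysis list 1 of 27 rose and 3 fell (median −0.21), a share near the 13.3% called in either direction over all genes: Ndrg1 rose from 14.5, 13.8 and 14.3 to 22.9, 19.6, 23.1 and 24.5 (0.72 ± 0.09, adjusted p = 0.00176) and Egln3, an oxygen-sensing prolyl hydroxylase, fell from 7.13, 8.56 and 6.53 to 2.43, 2.19, 2.44 and 2.39 (−1.59 ± 0.23, adjusted p = 0.00218). Neither gene's groups overlapped, and SB273005 replicate 2 stood near its group for both. The count of 4 was 2 without PBS replicate 2.

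Nuclear genes of oxidative phosphorylation had 5 of 34 lower and a median of −0.25. Over all genes 13.3% were called, with 7.88% higher and 5.43% lower. That list had 0 called without PBS replicate 2, SB273005 replicate 2 or SB273005 replicate 3, 2 without PBS replicate 3 or SB273005 replicate 1, 3 without PBS replicate 1, BAPN replicate 2 or 3, or Cilengitide replicate 2 or 3, and 0 in a fit of the 7 libraries. The 13 mitochondrially encoded genes had 0 calls, and their median of 0.43 became −0.11 without SB273005 replicate 2. Of 26 NADPH oxidase and antioxidant genes 4 rose and 3 fell (median 0.07): the oxidase subunit Ncf1 and the haem oxygenase Hmox1 rose by 1.62 ± 0.43 (0.0292; 0.12 without PBS replicate 2) and 1.48 ± 0.42 (0.0378; 0.127 without PBS replicate 2), and Nqo1, an NRF2 target, fell by 1.04 ± 0.20 (0.0072). The median for that list lay between −0.03 and 0.11 under other scalings, and the count of 7 was 2 without PBS replicate 2 or 3 and 4 without SB273005 replicate 1 or 2. The vascular oxidase gene Nox4 stood at −0.25 (adjusted p = 0.526). Ribosomal protein genes had 0 calls of 34 and a median of −0.07.

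Markers of other tissues and of fibroblasts were also listed, and the skeletal muscle and liver lists moved with single libraries. The adipocyte list had 1 of 12 higher (7.88% over all genes) and a median of 0.94, with 528 to 844 CPM in PBS and 730, 775, 1800 and 1990 in SB273005, the last 2 being replicates 3 and 1. Skeletal muscle genes had 0 of 10 called and a median of −2.13, which lay between −2.15 and 0.03 under other scalings and at 2.67 without PBS replicate 2, with 5690 CPM in PBS replicate 2 and 90.6 to 749 in the other 6 libraries. Liver genes had 6 of 11 lower and a median of −2.56, and 0 were called without PBS replicate 1, whose 123 FPKM of Alb compare with 68.4 and 6.24 in the other PBS libraries and 2.47 to 16.3 in SB273005; 0 were called without PBS replicate 2 or SB273005 replicate 1 as well, and 2 without SB273005 replicate 2. Kidney genes had 1 of 9 higher (7.88% over all genes), Slc12a1 (0.69 ± 0.18, adjusted p = 0.0236; 0.0872 without PBS replicate 2), and 337 to 480 CPM in all 7 libraries. That count was 0 without any 1 PBS replicate, 4 without SB273005 replicate 2, 3 without BAPN replicate 4 and 2 without SB273005 replicate 4. Umod was at 23.0 FPKM in SB273005 replicate 4 and at 7.73 to 11.6 in the other 6, against 19.8 to 25.8 in BAPN and 23.6 to 25.3 in Cilengitide. Fibroblast markers, which include collagen and proteoglycan genes given above, had 5 of 16 higher and a median of 0.50, and 10800 to 13700 CPM in PBS against 16200 to 27500 in SB273005, while Pdgfra, Pi16, Ly6a and Scara5 stood between −0.22 and 0.44 and did not pass. The fibroblast count was 1 without PBS replicate 2, 2 without PBS replicate 1 or 3, and 3 without BAPN replicate 2 or 4, Cilengitide replicate 2 or 3, or SB273005 replicate 1. The part of such differences in the results above was not tested.

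The naming rule picked the called genes of smallest p among those with a mean of 20 FPKM or more in the higher group. The smallest adjusted p of these belonged to Kcnh2 (chr5:24319589-24351604 on mm10, minus strand), a voltage-gated potassium channel, which had 28.4, 28.5 and 26.1 FPKM in PBS and 9.47, 10.3, 14 and 11.3 in SB273005 (−1.24 ± 0.12, adjusted p = 0.000297). Smim5, a small integral membrane protein gene (chr11:115899966-115906269, plus strand), had 23.7, 24.4 and 15.9 in PBS and 5.13, 5.27, 5.22 and 3.4 in SB273005 (−2.10 ± 0.23, adjusted p = 0.000569). Both stood under every omission and in a fit of the 7 libraries (adjusted p = 0.0133 and 0.0105). The others that fell were Prdm6 and Fzd2, given above, the kinase gene Tnk2 (−1.03 ± 0.13), the fatty acid desaturase gene Fads2 (−0.94 ± 0.13), the corepressor gene Hr (−1.49 ± 0.21) and Nrtn, which encodes neurturin (−1.16 ± 0.16), with adjusted p from 0.00176 to 0.00218.

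Among the rises of smallest p, Thy1, a surface marker of fibroblasts and T cells, had 7.79, 8.41 and 5.91 FPKM in PBS and 24.9, 23.9, 19.7 and 22.9 in SB273005 (1.69 ± 0.21, adjusted p = 0.00159). Spry1, an inhibitor of receptor tyrosine kinase signalling, rose from 5.5, 6.81 and 8.36 to 27.9, 20, 25.9 and 25.8 (1.90 ± 0.27, adjusted p = 0.00226), and Cyp1b1, a cytochrome P450, by 1.49 ± 0.21 (0.00222). The remaining rises picked were Ndrg1, C1s1, Fcgr3, C1qb and C1qc.

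By size of difference, the largest called rises after Cthrc1 and Clec4d were S100a8, Col11a1, Gpr176, P4ha3, Cx3cr1, C1qtnf3, S100a9 and Spp1, from 4.65 down to 4.01. Clec4d, S100a8, Col11a1, Gpr176, P4ha3 and S100a9 were under 1 FPKM in every PBS library and passed the filter through SB273005 libraries alone. Gpr176, an orphan receptor, had 0.484, 0.17 and 0.218 FPKM in PBS and 11.5, 3.99, 5.33 and 5.17 in SB273005 (4.56 ± 0.70, adjusted p = 0.00334). The largest called falls were led by Serpina1e (−3.33), a gene of the liver, with 29.1, 8.15 and 1.83 in PBS replicates 1 to 3 and 0.763 to 1.47 in SB273005 (adjusted p = 0.0117; 0.0568 without PBS replicate 1). Klk10, a kallikrein-related peptidase, fell from 5.94, 7.57 and 5.92 to 0.751, 0.39, 0.61 and 1.44 (−2.96 ± 0.42, adjusted p = 0.00225), and Rab17, a small GTPase, from 4.91, 5.84 and 3.92 to 0.729, 0.206, 0.55 and 0.987 (−2.93 ± 0.41, adjusted p = 0.00218). Atcayos (−2.95), an antisense transcript, cannot be told from its partner gene without the strand setting. Casq1, Mreg, Slc24a4 and Klhl41 fell by 2.37, 2.06, 2.09 and 2.06; of these Klhl41, a muscle gene at 10.9 FPKM in PBS replicate 2 against 1.94 and 2.13 in the others, had an adjusted p of 0.0475, or 0.446 without that library, and Slc24a4 had 0.0341, or 0.0903 without PBS replicate 1.

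Direct tests in the same fit asked where the SB273005 libraries differed from BAPN alone and from BAPN+Cilengitide. Against BAPN, 13 of the 12773 genes were called (0.102%), 5 higher (0.0391%) and 8 lower (0.0626%), and 2098 had an unadjusted p under 0.05. DESeq2 called 387. Of the 13, 12 were also called against PBS, and the 2 comparisons share the SB273005 libraries. They were picked because they passed this test, and Kcnh2 and Smim5 also met the naming rule. Inka2, whose product inhibits the kinase PAK4, had the smallest adjusted p, with 6.52, 7.88, 7.82 and 5.54 FPKM in BAPN replicates 1 to 4 and 2.61, 2.1, 2.92 and 3.26 in SB273005 (−1.30 ± 0.16, adjusted p = 0.0216). In PBS it had 11.1, 10.7 and 9.04, and in Cilengitide 3.96, 3.98 and 5.46, so BAPN lay between PBS and both inhibitor groups.

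Kcnh2 followed the same order, with 17.6, 20.7, 21.5 and 19.7 FPKM in BAPN and 13, 13.2 and 14.5 in Cilengitide, against 9.47 to 14 in SB273005 (−0.77 ± 0.11 vs. BAPN, adjusted p = 0.0427). Igsf9, an immunoglobulin superfamily gene, had 9.78, 9.24 and 7.33 in PBS, 6.05, 5.24, 5.29 and 4.86 in BAPN, 2.8, 3.83 and 3.77 in Cilengitide and 2.75, 2.23, 3.25 and 2.18 in SB273005 (−0.99 ± 0.14 vs. BAPN, adjusted p = 0.0427). Smim5, Abcb9 and Fam118a were likewise lower than BAPN, by 1.26 ± 0.21, 0.58 ± 0.09 and 0.77 ± 0.13 on the log2 scale (adjusted p = 0.048 for each), and in each of them the BAPN libraries were below PBS. Stk32b, a kinase gene, ran the other way, with 1.79 to 2.47 in PBS, 3.38 to 4.54 in BAPN, 6.26 to 7.67 in Cilengitide and 6.21 to 9.53 in SB273005 (1.00 ± 0.16 vs. BAPN, adjusted p = 0.048).

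In 4 other genes the PBS and BAPN libraries overlapped. Depp1, a gene induced by fasting and FOXO factors, had 1.99, 4.23 and 2.31 FPKM in PBS, 2.81, 2.62, 2.66 and 6.97 in BAPN, 4.44, 5.91 and 5.73 in Cilengitide and 13.6, 22.5, 32.4 and 11.4 in SB273005 (2.46 ± 0.42 vs. BAPN, adjusted p = 0.048). Every SB273005 library was above every other library. Slc5a3, the sodium and myo-inositol cotransporter gene, had 1.7 to 1.9 in PBS, 1.82 to 2.46 in BAPN, 2.4 to 2.59 in Cilengitide and 3.02 to 5.07 in SB273005 (1.01 ± 0.15 vs. BAPN, adjusted p = 0.0427), and Eef2k, the kinase of elongation factor 2, had 16.7 to 18.8 in PBS, 14.9 to 20.8 in BAPN, 13.5 to 17.2 in Cilengitide and 8.18 to 12.5 in SB273005 (−0.88 ± 0.14 vs. BAPN, adjusted p = 0.048). Bdkrb2, the bradykinin B2 receptor, had 2.07 to 2.38 in PBS, 1.68 to 3.5 in BAPN, 1.32 to 2.04 in Cilengitide and 0.713 to 0.994 in SB273005 (−1.46 ± 0.23 vs. BAPN, adjusted p = 0.048), with every SB273005 library below every other library. Hhipl1 had 2.79 to 2.84 in PBS, 2.98 to 3.49 in BAPN, 3.87 to 4.45 in Cilengitide and 4.6 to 5.82 in SB273005 (0.66 ± 0.11 vs. BAPN, adjusted p = 0.048).

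Myh7, a cardiac myosin heavy chain gene, was the called gene that was level with PBS (0.04 ± 0.78, adjusted p = 0.976). It had 4.51 to 5.08 FPKM in PBS and 5.96, 5.31 and 7.54 in SB273005 replicates 1 to 3, but 0.261 in SB273005 replicate 4 and 0.0329 to 0.26 in BAPN and Cilengitide (5.35 ± 0.89 vs. BAPN, adjusted p = 0.048). It thus parted the libraries as H2-Ea did. For the other 12 genes every SB273005 library, replicate 4 included, lay on one side of every BAPN library. These genes were picked by this same test, so that separation follows in part from the choice. All BAPN libraries lie on the other side of the H2-Ea split from SB273005 replicates 1 to 3. For these replicates the direct contrast and the split cannot be told apart, and the part of the split in the calls was not tested. The direct calls rested on single libraries: 0 genes were called against BAPN without PBS replicate 1, BAPN replicate 2 or 3, or SB273005 replicate 1, 61 without BAPN replicate 1, 25 without Cilengitide replicate 1 and 72 without SB273005 replicate 4, and each of the 13 lost its call under some omission (largest adjusted p 0.119 for Inka2 and 0.201 to 0.204 for the others).

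**Figure D3:**
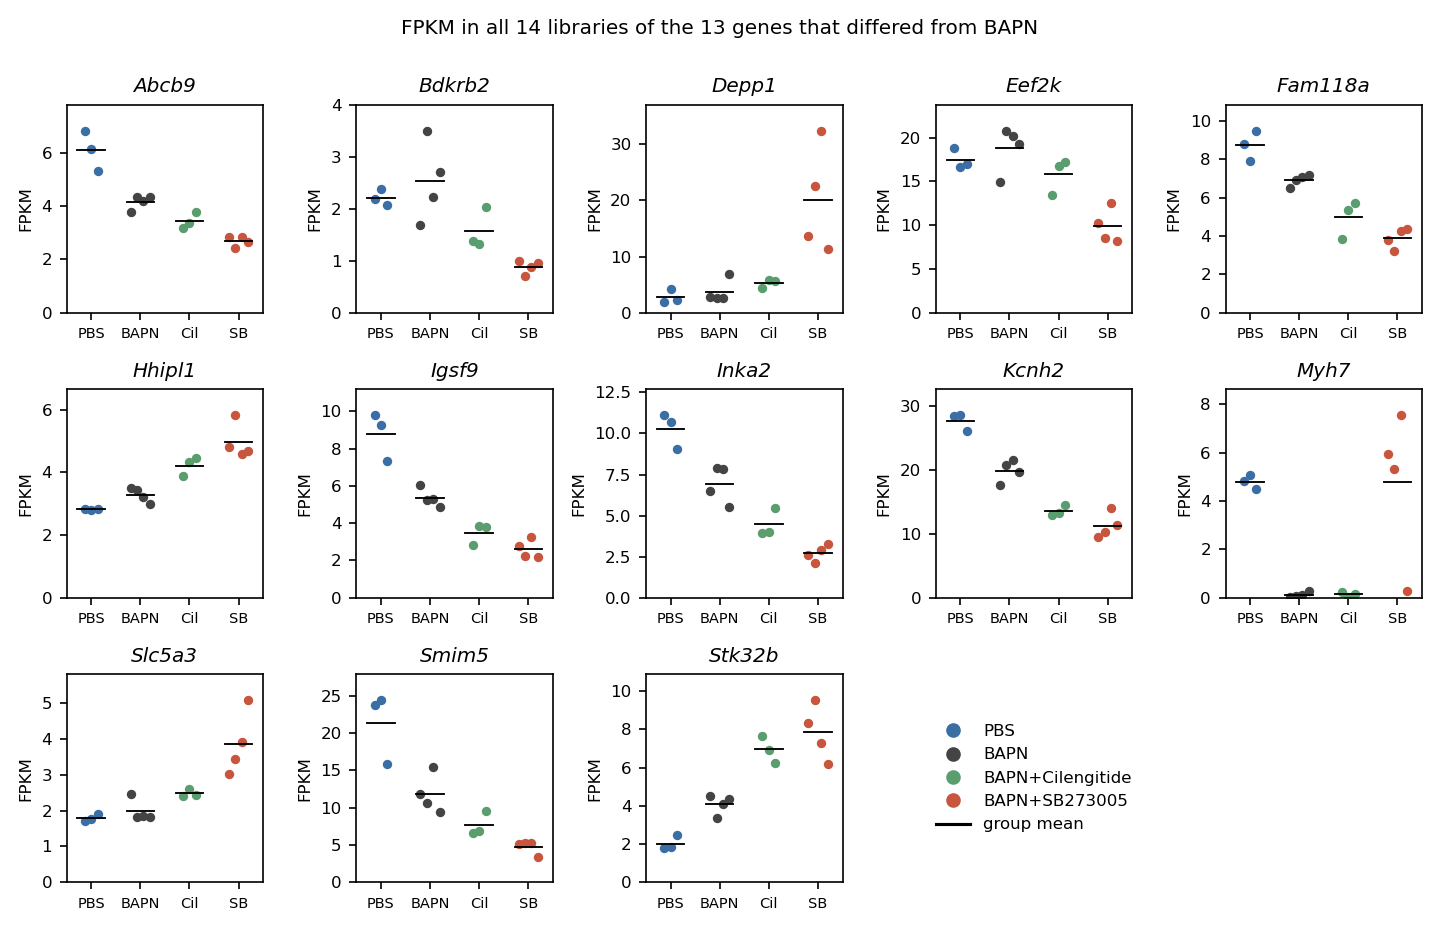
FPKM in all 14 libraries of the 13 genes called against BAPN, 1 panel per gene with a vertical axis from 0; points are libraries coloured by group (Cil, BAPN+Cilengitide; SB, BAPN+SB273005) and bars are group means. Depp1 is at 11.4 to 32.4 in SB273005 and at most 6.97 in the other groups, and Myh7 splits the SB273005 group, with replicate 4 at 0.261.

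Against BAPN+Cilengitide, edgeR called 0 of the 12773 genes (0.0%), with 1197 at an unadjusted p under 0.05 and a smallest adjusted p of 0.345, and DESeq2 called 34. The doses are not given, so these levels stand side by side without a matched dose. For the integrin genes the differences between the 2 inhibitor groups were −0.02 ± 0.14 for Itgav and −0.42 ± 0.26 for Itgb1 (adjusted p = 0.974 and 0.628), and −0.58 ± 0.21 for Itgb3 and −0.18 ± 0.19 for Itgb5 (adjusted p = 0.489 and 0.783). A p that misses the threshold does not show that the 2 compounds act alike.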

How the data were processed

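Per the labels' protocols, Trizol was used to isolate the RNA of ascending aortas, and SuperScript II to make cDNA. HISAT2 2.2.1, StringTie 2.1.6 and the build mm10 are named in the submitters' processing notes; nothing used here gives the annotation release, the read filters or the strand setting. The authors deposited 1 table of genes with an estimated count and an FPKM value for each library; counts that are estimates make edgeR's count model an approximation, and they were used as whole numbers. FPKM, as deposited by the authors, is scaled to each library's mapped fragments and to gene length, and was used for levels and for the filter.

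All 14 libraries were fitted together with edgeR 4.0.16 (TMM scaling, quasi-likelihood test, R 4.3.3), with 1 coefficient per group, and genes with FPKM of 1 or more in at least 3 of the 7 libraries compared were kept. P-values were adjusted by Benjamini-Hochberg over those genes at 0.05. The scripts were tested on simulated data. Alternatives were limma 3.58.1, DESeq2 1.42.0, other scalings and filters, a replicate block and leaving out each library. The deepest and shallowest of the 14 libraries held 72584877 and 49027885 counts. Over 9 pairs of replicates within the compared groups, log2 CPM correlated at 0.931 to 0.98 and no pair agreed within sampling noise.

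Named genes were target and disease genes; the 10 largest rises and falls among called genes whose groups did not overlap, with a mean of 1 FPKM or more in the higher group; the 8 rises and 8 falls of smallest p with a mean of 20 FPKM or more; and up to 4 genes of smallest p in each of 57 lists, plus those needed to show a list's direction. The members and lists were chosen with earlier results of these data known. Counts of related or overlapping genes are uncertain. The deposited transcript table was not used.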

Additional observations from a re-analysis of the deposited data

Results flagged for a closer look

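In a group of 4 libraries, 1 library was taken to stand apart when its gap to the nearest other was a larger share of the group's range than Dixon's critical value at 95%; chance gives this in about 1 of 20 groups. It was seen in the SB273005 group for 15 of 234 genes checked, with replicate 1 apart for 9, replicate 2 for 4, replicate 4 for 2 and replicate 3 for 0. SB273005 replicate 1 was above the others for Itga11 (20.7 FPKM), Tns3 (22.9), Thbs1 (228), Ltbp2 (232), Bmp4 (18), Adamtsl3 (17.7), Igkc (86.2), Ccnd1 (25.4) and Trib3 (3.88). Replicate 2 was high for Adamts7 (2.92 FPKM) and low for Cst3 (815), Atp5g1 (5.55) and Ryr2 (0.262), and low for the smooth muscle channels and receptors as a list (1250 CPM), the 1 list of 57 in which a library stood apart. Replicate 4 was low for Smim5 (3.4 FPKM) and Upk3b (7.02).

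Smim5 and Kcnh2 differed between the SB273005 and BAPN groups in the direct test, with log2 differences of −1.26 and −0.77.

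H2-Ea, which was under the FPKM minimum and in no test, had 116 counts in SB273005 replicate 4 and 0 in each PBS library and in SB273005 replicates 1 to 3.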

How the results depend on the processing

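Against PBS, the 1700 calls became 528 in a fit of the 7 libraries alone (385 higher, 143 lower), 732 with limma on log2(TPM + 1) (402 higher, 330 lower), 1035 with no FPKM minimum (643 higher, 392 lower) and 522 between PBS and SB273005 replicates 1 to 3 alone (396 higher, 126 lower). With an FPKM minimum of 5, 643 were higher, and with DESeq2 1059 were lower. Leaving out 1 library gave 510 to 1939 calls, 316 to 1111 higher and 194 to 828 lower. Against BAPN, the 13 calls became 39 with a replicate block, 387 with DESeq2, 3 with limma on log2(TPM + 1), 1 after quantile normalisation, 0 with no FPKM minimum, 4 in a robust fit and 0 to 72 with 1 library left out. Against Cilengitide, the 0 calls became 34 with DESeq2, 8 without SB273005 replicates 2 and 4, and 0 to 10 with 1 library left out. The cause was not tested. With the replicate block, 1800 genes were called against PBS. Same-numbered PBS and SB273005 libraries deviated together with r of 0.15, −0.04 and 0.21 for numbers 1, 2 and 3, so the numbers were not taken to pair the samples. Over all results and alternatives, 8222 values kept their direction and side of the threshold, 657 kept the direction but lost the call, 61 gained it, and 508 counts or medians moved. Of the 1700 calls, 4 had the opposite sign without PBS replicate 1. The skeletal muscle median turned from −2.13 to 2.67 without PBS replicate 2, that of B and plasma cell genes from −3.60 to 1.62 without PBS replicate 1, and that of mitochondrially encoded genes from 0.43 to −0.11 without SB273005 replicate 2. That of cardiomyocyte genes turned from 0.47 to −0.08 without SB273005 replicate 3, and the medians of some other lists changed sign under 1 or more alternatives.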

Other observations

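Lysosomal genes were called in 7 of 24 cases, 6 higher and 1 lower (7.88% and 5.43% over all genes), with a median of 0.21. Npc2, a cholesterol-binding protein of the lysosome, rose from 28.4, 28.3 and 26.3 FPKM in PBS to 45.6, 46.2, 32.9 and 33.4 in SB273005 (0.58 ± 0.17, adjusted p = 0.038; 0.111 without PBS replicate 3). Tfeb, which encodes a master regulator of lysosomal genes, was the member that fell, with 10.4, 10.2 and 9.76 FPKM in PBS and 6.23, 6.26, 6.59 and 7.12 in SB273005 (−0.57 ± 0.12, adjusted p = 0.0123; 0.0569 without PBS replicate 2). Its groups did not overlap, and it stood at 0.00 against BAPN (adjusted p = 0.993). The lysosomal count was 3, 1 and 2 without PBS replicates 1, 2 and 3, 3 without Cilengitide replicate 2 or SB273005 replicate 2, and 2 without SB273005 replicate 1.

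Of 24 immediate early and heat shock genes 2 rose and 1 fell, a share near the 13.3% called over all genes. Egr2 rose by 1.38 ± 0.27 (adjusted p = 0.00726), Dnajb1 by 0.93 ± 0.29 (0.0496; 0.181 without PBS replicate 2), and Jund fell by 0.57 ± 0.17 (0.0413; 0.106 without PBS replicate 3). That count was 6 without SB273005 replicate 2 and 1 without PBS replicate 2 or 3, BAPN replicate 2 or 3, or Cilengitide replicate 2. Hlf, a clock-controlled transcription factor, was the 1 called gene of 16 in the circadian list (−1.01 ± 0.26, adjusted p = 0.0256; 0.103 without PBS replicate 3). Krt18, a keratin, fell from 20.1, 16.9 and 11.0 FPKM in PBS to 6.24, 4.41, 4.26 and 4.87 in SB273005 (−1.63 ± 0.27, adjusted p = 0.00386), the 1 call among 8 mesothelial and epithelial genes. Of 5 lymphatic genes, Pdpn (podoplanin) and the chemokine gene Ccl21a rose by 1.77 ± 0.44 and 2.93 ± 0.86 (adjusted p = 0.0213 and 0.0413; 0.0712 without PBS replicate 1 and 0.141 without PBS replicate 2); Ccl21a has near-identical copies. Cd36 and Fabp4 were the 2 calls among 21 fatty acid genes (adjusted p = 0.0383 and 0.043; 0.126 and 0.142 without PBS replicate 3). That count was 0 without PBS replicate 1, 2 or 3 or SB273005 replicate 1 or 3, and 1 without BAPN replicate 1 or 2, Cilengitide replicate 2 or SB273005 replicate 2. In the circadian, mesothelial and epithelial, and fatty acid lists the share called was under the 13.3% over all genes. By direction, 7.88% of all genes were called higher and 5.43% lower. The 12 cardiomyocyte, 7 Schwann cell, 6 erythroid and 1 mast cell genes tested had 0 calls.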
